A study of Rattus norvegicus with 10 samples.

Results

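The miR-125 and miR-99/100 families were followed in the dorsal vagal complex, the hindbrain region that holds the vagal motor neurons sending parasympathetic output to the heart. Members were all microRNA probes of the panel named miR-125, miR-99 or miR-100, with any letter or arm. This gave 7 of 420 microRNA probes: miR-125a-5p, miR-125a-3p, miR-125b-5p and miR-125b-3p, and miR-99a, miR-99b and miR-100. All 7 were counted above the background threshold (the mean plus 2 SD of the 8 negative control probes) in 10 of 10 samples, and 253 of the 420 probes passed it in at least 2 samples.

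Each sample was a tissue punch from brainstem sections 200 um thick, taken from 1 male Sprague-Dawley rat and assayed on the rat microRNA panel of the NanoString nCounter. In this assay each microRNA is ligated to a tag and its barcodes are counted without amplification. The 4 groups were age-matched controls (AMC, n = 3), remote ischemic preconditioning by occlusion of the femoral vessels (RIPC, n = 2), infarction by tying off the left anterior descending (LAD) coronary artery (LAD, n = 3), and both together, with RIPC given 2 h before the artery was tied (RIPC+LAD, n = 2). Tissue from LAD and RIPC+LAD animals was taken 24 h after coronary surgery. By the methods of the study, RIPC animals were sampled at the same interval after preconditioning as RIPC+LAD animals. Remote preconditioning is a short ischemia of a limb that protects the heart against a later infarct, and the comparisons ask how the members stood after each intervention and after both. No sham-operated group was counted in this assay, so anaesthesia and surgery cannot be told apart from RIPC or LAD. No prefix of the animal numbers is shared between groups. Both RIPC+LAD animals have the same prefix, as do LAD 2 and LAD 3, and AMC 2 and AMC 3. What the prefix marks is not stated, and it cannot be told apart from the group.

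MicroRNAs pair through bases 2 to 8 of their 5′ end, the seed, with sites in messenger RNAs and lower the output of those messengers. MicroRNAs with the same seed are grouped as a family because they can pair with the same sites. MiR-125b and miR-125a are the vertebrate relatives of lin-4, the first microRNA described in Caenorhabditis elegans, and they are abundant in the brain, where they are known from neuronal differentiation and synaptic function. The miR-99/100 family is known in mammalian cells for lowering mTOR and the IGF1 receptor, which control growth and protein synthesis. Each family is encoded in clusters together with a let-7 gene, and let-7, like miR-125, is a microRNA that accumulates as cells mature.

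In the RefSeq gene table of the rat assembly GRCr8, Mir99b, Mirlet7e and Mir125a lie within 0.696 kb on chromosome 1. Mir100, Mirlet7a-2 and Mir125b1 span 51.8 kb on chromosome 8, and Mir99a, Mirlet7c1 and Mir125b2 span 45.3 kb on chromosome 11. MiR-100 and miR-99a, which the results below turn on, therefore come from different loci. Mature miR-125b-5p can be made from both Mir125b1 and Mir125b2, and its probe cannot separate them.

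The mature sequences of 6 of the 7 members were found by name in the RefSeq table of build GRCr8, 5 of them with 1 entry and miR-125b-3p with 2, because the probe name does not say which of its loci is read. The sequence of miR-99a was not found there and is not shown, so it could not be set beside that of miR-100. The sequences found are shown to make visible which members share a seed and how the arms differ, 5′ to 3′ with the seed in capitals. The sequence of miR-10a-5p is added as the closest relative of the miR-99/100 family outside it.
miR-125b-5p: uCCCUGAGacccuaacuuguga
miR-125a-5p: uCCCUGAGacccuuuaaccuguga
miR-100-5p: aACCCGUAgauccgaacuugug
miR-99b-5p: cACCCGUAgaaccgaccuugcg
miR-125a-3p: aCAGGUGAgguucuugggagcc
miR-125b-1-3p: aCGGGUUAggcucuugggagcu
miR-125b-2-3p: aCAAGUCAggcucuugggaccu
miR-10a-5p: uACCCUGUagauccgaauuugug

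MiR-125b-5p and miR-125a-5p share their first 13 bases, seed included, and then diverge. MiR-100-5p (chr8:50798307-50798328, plus strand) and miR-99b-5p (chr1:67350070-67350091, plus strand) are both 22 bases long, carry the same seed and differ at 4 positions outside it. MiR-100-5p and miR-10a-5p hold a common run of 11 bases but have different seeds. Of the 693 mature sequences in that table, 3 carry the seed of miR-125a-5p and miR-125b-5p, and the other one, miR-351-5p, was not among the detected microRNAs. The 3p arms of miR-125a and miR-125b have seeds of their own, so the 3p members are grouped here by gene and not by seed. How far the probe of one member also reads a close relative was not tested.

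The total of microRNA counts per sample ran from 28485 to 102824, with LAD 3 and LAD 2 (42893) the lowest and all other samples at 73293 or above. Exact (Clopper-Pearson) 95% intervals of a share of counts, which cover counting error only, were narrow for the abundant members, at 9.41 to 10.1% for miR-125b-5p in LAD 3. They were wide for the rarest, at 0.0218 to 0.0736% for miR-125a-3p in the same sample, where it had 12 counts. In LAD 1 miR-204, which is abundant in choroid plexus, took 18.3% of the counts. The 6 neuronal marker microRNAs, miR-124 and miR-9 among them, summed to 10.7 to 15.0% across samples, so the markers of the labelled tissue were present in all. The ligation control, read as a percentage of the highest positive control (POS_A), was 111 and 172 in RIPC+LAD and 24.3 to 85.6 in the other 8 samples. This percentage stood apart in the same 2 animals as several members below. The ligation counts themselves did not, at 7482 and 12507 in RIPC+LAD against 10037 in AMC 3. POS_A had 6725 and 7264 counts in RIPC+LAD and 7049 to 14579 in the other 8.

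Together the 7 members held 20.3% of all counts on average, with the miR-125 probes far ahead of the miR-99/100 probes. The share was 20.1% ± 1.66 in AMC (SD, n = 3), 20.8% ± 0.0263 in RIPC (n = 2), 18.3% ± 1.72 in LAD (n = 3) and 22.9% ± 2.20 in RIPC+LAD (n = 2). MiR-204 took 18.3% of the counts in LAD 1 and 9.75% in RIPC 1, which lowers the share of all other microRNAs there. By sample the share of the members ran from 17.0% in LAD 1 to 24.5% in RIPC+LAD 2. RIPC+LAD 1, at 21.4%, lay next to AMC 2 at 21.2%. The miR-125 probes gave nearly all of this spread, with group means of 18.1% in AMC, 18.7% in RIPC, 16.2% in LAD and 20.9% in RIPC+LAD. The miR-99/100 probes summed to 1.97% ± 0.150 in AMC (SD, n = 3), 2.04% ± 0.183 in RIPC (n = 2), 2.03% ± 0.218 in LAD (n = 3) and 2.03% ± 0.0937 in RIPC+LAD (n = 2). These shares are given as a description, without a test. In a bulk punch, fewer cells of a type and less of a microRNA per cell cannot be told apart.

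**Figure D1:**
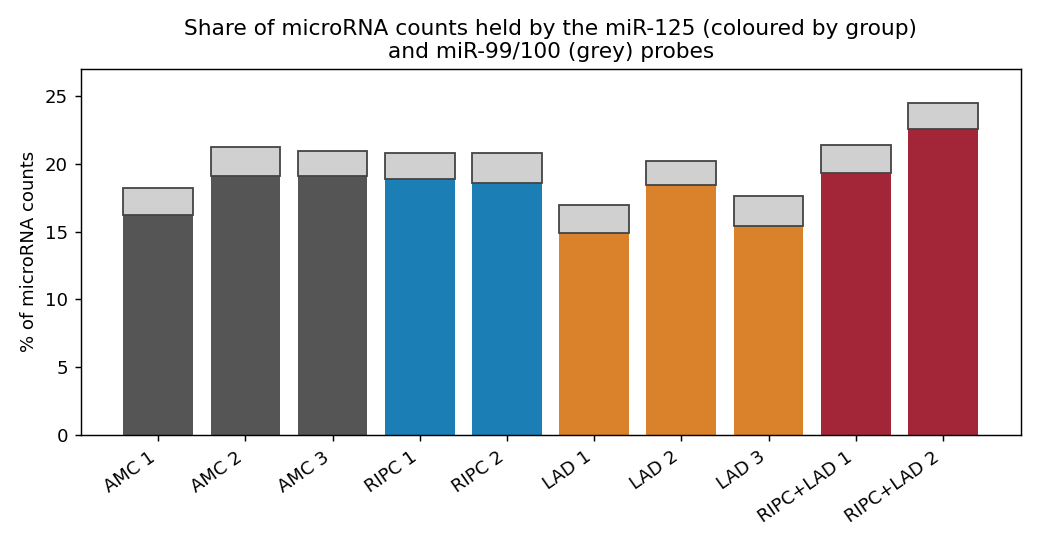
Percentage of all microRNA counts (vertical axis, from 0) held by the miR-125 probes (coloured by group) and the miR-99/100 probes (grey, stacked on top) in each of the 10 animals. The full bars run from 17.0% in LAD 1 to 24.5% in RIPC+LAD 2, while the grey part stays between 1.80 and 2.24%. In LAD 1 miR-204 took 18.3% of the counts, which lowers the bar of that sample.

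The 5p arms of miR-125 were the abundant members. MiR-125b-5p had the highest mean share of all 420 probes, 12.5%, although probes can differ in efficiency, so that ranks between them are of counts and not of molecules. It held 11.4, 12.9 and 13.3% of counts in AMC, 13.0 and 13.3% in RIPC, 10.7, 13.1 and 9.75% in LAD, and 12.5 and 15.1% in RIPC+LAD. The 4 groups overlapped, with the lowest value in LAD 3 and the highest in RIPC+LAD 2.

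MiR-125a-5p, which shares the seed of miR-125b-5p, ranked 4 with a mean of 5.52%. It held 4.64, 5.92 and 5.55% in AMC, 5.67 and 5.10% in RIPC, 4.10, 5.19 and 5.35% in LAD, and 6.50 and 7.13% in RIPC+LAD. AMC, RIPC and LAD overlapped, and both RIPC+LAD samples lay above all other 8. The count ratio of miR-125a-5p to miR-125b-5p was 0.429 ± 0.0548 in the other 8 samples (SD, n = 8) and 0.518 and 0.471 in RIPC+LAD, inside the range set by LAD 3 at 0.549.

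The 3p arms, the strands that are mostly discarded when the hairpin is processed, were scarce. MiR-125a-3p had 45, 49 and 42 counts in AMC, 42 and 28 in RIPC, 33, 17 and 12 in LAD, and 49 and 58 in RIPC+LAD. As a share this was 0.0469% ± 0.00522 in AMC (SD, n = 3), 0.0382 and 0.0466% in RIPC, 0.0322 to 0.0421% in LAD, and 0.0607 and 0.0622% in RIPC+LAD, where both samples again lay above the other 8. The ratio of miR-125a-5p to miR-125a-3p counts was 121 ± 13.2 over all samples (SD, n = 10), without a group apart from the others. With the negative control mean subtracted it was 103 to 150 in AMC, 130 and 159 in RIPC, 139 to 156 in LAD, and 114 and 120 in RIPC+LAD.

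MiR-125b-3p held 0.141, 0.204 and 0.158% in AMC, 0.153 and 0.156% in RIPC, 0.128, 0.135 and 0.256% in LAD, and 0.182 and 0.189% in RIPC+LAD. LAD 3 was the highest of all samples for this arm and the lowest for miR-125b-5p. The ratio of miR-125b-5p to miR-125b-3p was accordingly 38.0 in LAD 3, the shallowest sample, against 63.2 to 96.6 in the other samples.

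Within the miR-99/100 family, miR-100 and miR-99a stood in opposite order in RIPC+LAD and in the other groups. MiR-100 had 529, 749 and 680 counts in AMC, 666 and 415 in RIPC, 639, 256 and 199 in LAD, and 886 and 992 in RIPC+LAD. Its share was 0.586, 0.764 and 0.661% in AMC, 0.739 and 0.566% in RIPC, 0.624, 0.597 and 0.699% in LAD, and 1.10 and 1.06% in RIPC+LAD. The 8 other samples overlapped between groups, and both RIPC+LAD samples lay above all of them, with exact 95% intervals of 1.03 to 1.17% and 0.999 to 1.13%.

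MiR-99a had 1104, 1172 and 1019 counts in AMC, 896 and 1036 in RIPC, 1264, 431 and 409 in LAD, and 668 and 611 in RIPC+LAD. Its share was 1.22, 1.20 and 0.991% in AMC, 0.995 and 1.41% in RIPC, 1.24, 1.00 and 1.44% in LAD, and 0.828 and 0.655% in RIPC+LAD, below all other samples. MiR-99b, encoded beside miR-125a, held 0.155 to 0.173% in AMC, 0.173 and 0.186% in RIPC, 0.166% ± 0.0553 in LAD (SD, n = 3), and 0.175 and 0.249% in RIPC+LAD, and its groups overlapped.

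**Figure D2:**
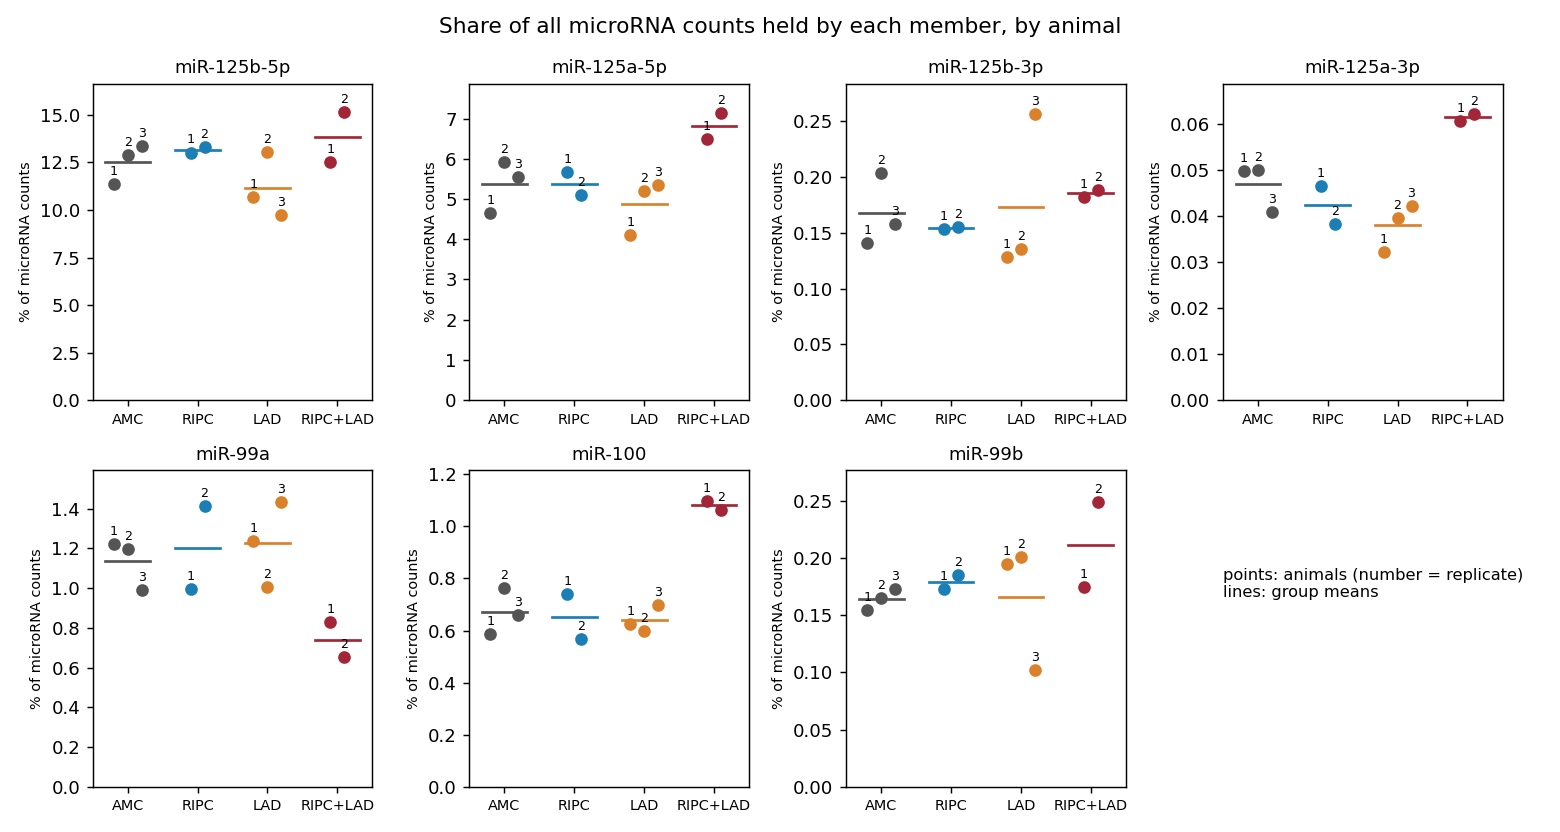
Percentage of microRNA counts (vertical axes, from 0, different in each panel) for the 7 members in the 4 groups, with 1 point per animal, its replicate number and a line at the group mean. For miR-125a-5p, miR-125a-3p and miR-100 both RIPC+LAD points lie above the other 8, and for miR-99a both lie below them.

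The count ratio of miR-100 to miR-99a does not depend on how samples are scaled. It was 0.479, 0.639 and 0.667 in AMC, 0.743 and 0.401 in RIPC, 0.506, 0.594 and 0.487 in LAD, and 1.33 and 1.62 in RIPC+LAD. MiR-99a thus had more counts than miR-100 in all 8 samples outside RIPC+LAD and fewer in both RIPC+LAD samples. The mean of the RIPC+LAD samples, 1.47 ± 0.210 (SD, n = 2), was 2.61 times the mean of the other 8, 0.564 ± 0.115 (SD, n = 8). The sum of miR-99a and miR-100, examined after their values were seen, was 1.81% ± 0.154 in AMC (SD, n = 3), 1.86% ± 0.174 in RIPC (n = 2), 1.87% ± 0.266 in LAD (n = 3) and 1.82% ± 0.146 in RIPC+LAD (n = 2). The ratio was described and not tested. Subtraction of the negative control mean before the ratio was taken left RIPC+LAD at 1.33 and 1.63.

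**Figure D3:**
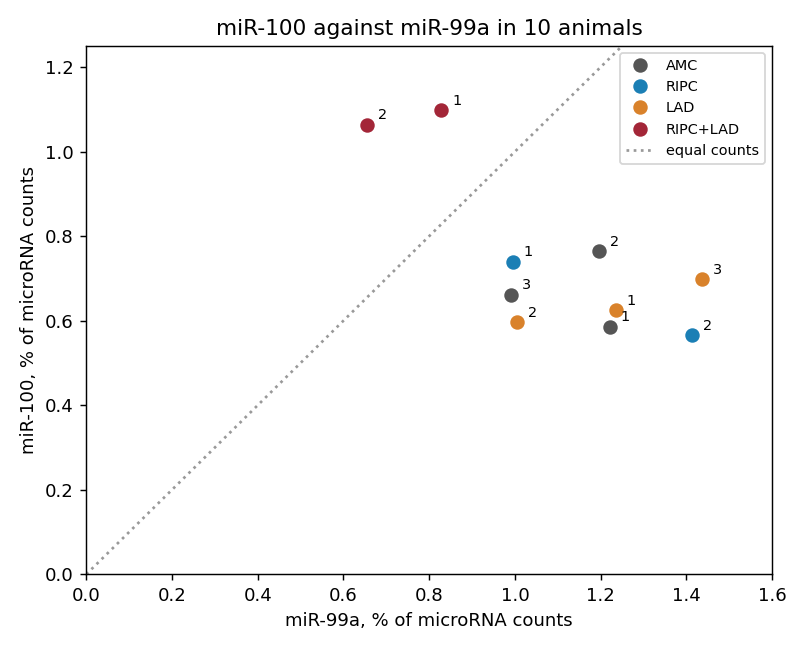
Share of microRNA counts of miR-100 (vertical axis, %) against that of miR-99a (horizontal axis, %) in the 10 animals, with replicate numbers and a dotted line where both have equal counts. The RIPC+LAD animals lie above the line, at ratios of 1.33 and 1.62, and the other 8 lie below it, at 0.401 to 0.743.

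Of the 7 members, 3 (miR-100, miR-125a-5p and miR-125a-3p) had both RIPC+LAD samples above the other 8, where 14 of 253 detected microRNAs (5.53%) did so. MiR-125a-5p and miR-125a-3p are arms of the same hairpin, so they do not count as separate loci. One member, miR-99a, had both below, as did 20 of 253 (7.91%). The same 3 and 1 members stood apart when counts were scaled by TMM, where 9.09% of all microRNAs stood above and 7.11% below, by the top 100 microRNAs (7.11 and 6.32%) or by a total without miR-204 (4.74 and 9.09%). Scaled to the positive controls, spiked in at the assay so that differences in RNA amount stay in the values, 6 members stood above and none below, but so did 35.6% of all detected microRNAs.

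The question after preconditioning was which members differed between RIPC+LAD and LAD, and here the median difference of the members was the greatest of the 5 pairwise comparisons, though none passed the threshold. In edgeR's quasi-likelihood test the log2 fold change of miR-100 was 0.89 ± 0.30 (SE, adjusted p = 0.127), a 1.86-fold higher level in RIPC+LAD. For miR-125a-3p it was 0.86 ± 0.32 (adjusted p = 0.174) and for miR-125a-5p 0.62 ± 0.29 (adjusted p = 0.267). MiR-125b-5p, miR-99b and miR-125b-3p had log2 fold changes of 0.45 ± 0.28, 0.47 ± 0.33 and 0.26 ± 0.35. MiR-99a was the only member with a negative value, -0.59 ± 0.29 (adjusted p = 0.278). The median of the 7 was 0.47, against 0.02 for all 253. The adjusted threshold of 0.05 was passed by 0 of 7 members and 0 of 253 microRNAs (0%), in edgeR, DESeq2 and limma-voom alike. At an unadjusted p under 0.05 edgeR had 3 of 7 members, where 17.4% of all detected microRNAs were. DESeq2 had the same 3 (12.6% of all), and limma-voom had miR-99a as well (18.2% of all).

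Beside the 3 of 7 with all animals, the count under an unadjusted 0.05 was 0 without RIPC+LAD 1 (12.6% of all 253), 1 without RIPC+LAD 2 (7.11%), 1 without LAD 1 (18.2%) and 1, miR-99a, without LAD 2 and LAD 3 together (18.2%). Leaving out a RIPC+LAD animal leaves 1 in that group, which widens the error, while the log2 fold changes stayed at 0.79 and 0.86 for miR-100 and at -0.85 and -0.48 for miR-99a without RIPC+LAD 1 and 2. When the ligation control entered the fit as a covariate, miR-99a was at -0.0675 and miR-100 at 0.65 (adjusted p = 0.842). As a percentage of POS_A that control separates RIPC+LAD from all other samples, so group and this percentage cannot be told apart. With this covariate 0 of 7 members were under an unadjusted 0.05 (5.93% of all), and with POS_A as a covariate also 0 (9.88%). Without AMC 1 the count was 2 (15.4%). Scaled to the top 100 or without the TMM factor it was 3 (17.0 and 17.8%), with miR-99a in place of miR-125a-5p. Scaled to the positive controls, 6 members and 78 of 253 microRNAs passed the adjusted threshold, and miR-99a, the member that did not, was at 0.41.

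The same 2 RIPC+LAD animals enter the comparisons with RIPC and with AMC, so these are not independent of the one above. Against RIPC, miR-100 had a log2 fold change of 0.86 ± 0.34 (edgeR, adjusted p = 0.514) and miR-99a -0.50 ± 0.31 (adjusted p = 0.586). Against AMC, miR-100 had 0.78 ± 0.30 (adjusted p = 0.444) and miR-99a -0.51 ± 0.29 (adjusted p = 0.596). MiR-125a-5p and miR-125a-3p had values of 0.49 ± 0.32 and 0.68 ± 0.34 against RIPC, and 0.43 ± 0.29 and 0.49 ± 0.30 against AMC. In both comparisons 6 of 7 members had positive values, with medians of 0.43 and 0.43 against 0.07 and -0.01 for all microRNAs. In edgeR none of the 253 passed the adjusted threshold in either (0%), and limma-voom called none, while DESeq2 called 1 microRNA against AMC, not a member. By all 3 tools 1 of 7 members, miR-100, was under an unadjusted 0.05 in each, with an edgeR background of 6.72% against RIPC and 8.70% against AMC. The background was 4.74 and 5.93% with DESeq2, and 5.53 and 8.30% with limma-voom. Against AMC the edgeR count was 0 without AMC 1 (6.32% of all), and it depended on each RIPC+LAD animal. Against RIPC it depended on RIPC 2 and RIPC+LAD 1. Removal of a RIPC or RIPC+LAD animal leaves 1 in its group. The log2 fold changes of miR-100 with 1 animal left out ran from 0.64 to 0.83 against AMC and from 0.52 to 1.31 against RIPC.

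LAD and RIPC were each compared with AMC, and no member passed the threshold. In LAD against AMC the edgeR log2 fold changes ran from -0.37 ± 0.30 for miR-125a-3p to 0.08 ± 0.25 for miR-99a, with -0.22 ± 0.25 for miR-125b-5p and -0.11 ± 0.27 for miR-100. In RIPC against AMC they ran from -0.19 ± 0.35 for miR-125b-3p to 0.05 ± 0.33 for miR-99b, with -0.08 ± 0.31 for miR-100 and -0.01 ± 0.28 for miR-99a. Each value lay within about its own SE of 0 except that of miR-125a-3p after ligation. The medians of the members were -0.11 and -0.06, against -0.01 and -0.03 for all microRNAs. The adjusted threshold was passed by 0 of 253 (0%) in both by edgeR, DESeq2 and limma-voom, and an unadjusted 0.05 by 0 of 7 members in both, with 5.53% of all microRNAs in LAD against AMC and 1.19% in RIPC against AMC. Scaled to the positive controls, 0 of 7 members were positive in LAD against AMC. Their median there was -0.56, against -0.40 for all microRNAs. The SEs in the main fit were 0.25 to 0.35, so a p that missed the threshold does not show that the groups were alike.

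The interaction asked whether the ligation went with another difference in preconditioned than in unconditioned animals. It was 0.98 ± 0.43 for miR-100 (edgeR, adjusted p = 0.341), 1.05 ± 0.45 for miR-125a-3p (adjusted p = 0.341) and -0.58 ± 0.40 for miR-99a (adjusted p = 0.547), on the log2 scale. The other 4 members had values of 0.43 to 0.68. None of the 253 passed after adjustment (0%) with edgeR, DESeq2 or limma-voom. At an unadjusted 0.05 edgeR and limma-voom had 2 of 7 members (12.3 and 11.1% of all) and DESeq2 had 1, miR-100 (6.72% of all). Without AMC 2 the edgeR count was 0 (10.3% of all). It was 1 without AMC 1 (11.9%), AMC 3 (9.88%), LAD 1 (7.91%) or LAD 2 (13.8%). It was 0 when scaled to the top 100 (11.9%), without the TMM factor (9.88%) or by non-member totals (12.3%). The count also depended on RIPC 2, on each RIPC+LAD animal, and on LAD 2 with LAD 3, whose removal leaves 1 animal in a group. With 1 animal left out the interaction ran from 0.64 to 1.42 for miR-100 and from 0.74 to 1.42 for miR-125a-3p. In the test for any difference among the 4 groups miR-100 had the smallest p of the members (edgeR, adjusted p = 0.524). Again 0 of 253 passed (0%) by all 3 tools. Before adjustment 1 of 7 members against 8.70% of all was under 0.05 in edgeR, a count that depended on each RIPC+LAD animal.

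**Figure D4:**
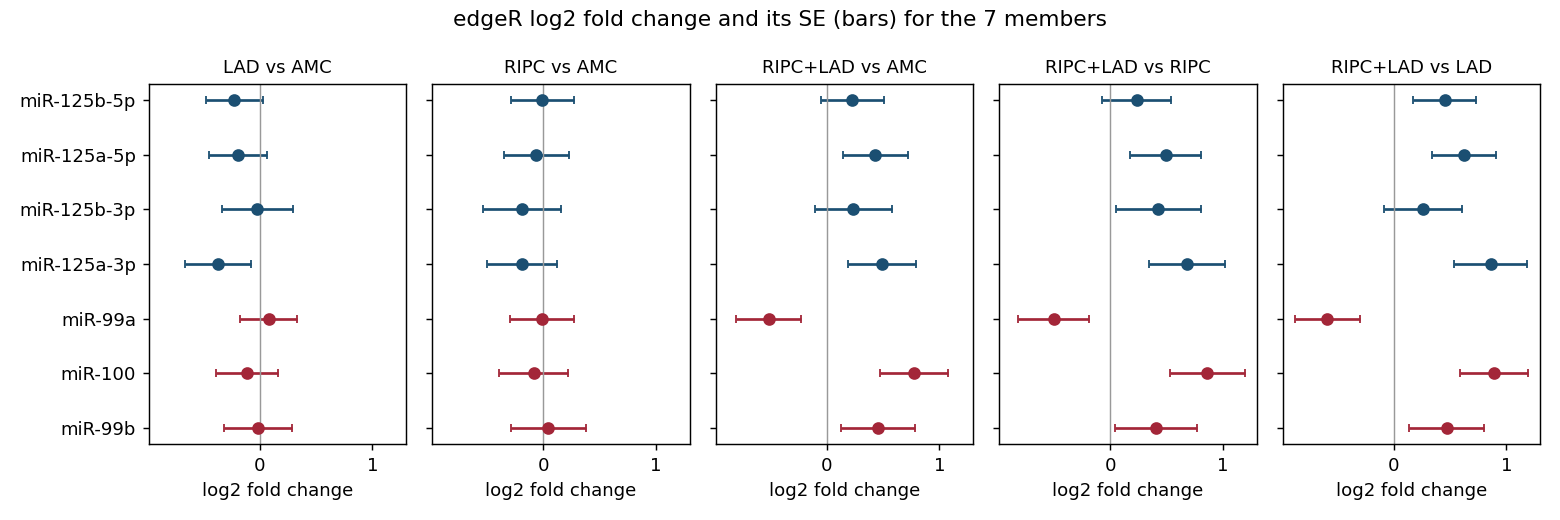
Log2 fold change (horizontal axes) of the 7 members in 5 comparisons, with bars of 1 SE from the edgeR fit of all 10 samples (miR-125 members in blue, miR-99/100 members in red). In the 3 comparisons with RIPC+LAD, miR-100 lies at 0.78 to 0.89 and miR-99a at -0.59 to -0.50, and in the comparisons of LAD or RIPC with AMC all members lie between -0.37 and 0.08.

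Members were also compared by how closely they moved with each other and with all microRNAs above threshold in every sample, using the SD of the log2 count ratio over the 10 samples, which is 0 for a constant ratio. MiR-100 was closest, among 140 microRNAs, to miR-125a-5p (0.191), miR-125a-3p (0.194) and miR-23b (0.226). Its family member miR-99a ranked 103 (0.652), and let-7a, of its own cluster, ranked 97 (0.597). MiR-125b-5p, which can come from that cluster too, ranked 17 (0.320). MiR-99a was closest to miR-411 (0.136), miR-150 (0.215) and miR-27b (0.221), and its cluster partner let-7c ranked 87 (0.567). For miR-99a, miR-125b-5p ranked 71 (0.497). Neither member of this pair was thus closest to the microRNAs encoded next to it, although let-7a and let-7c each have other gene copies as well.

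RIPC+LAD held the highest ratios of miR-100 to miR-99a, so leaving these samples out lowers the SD by that choice. Over the other 8 samples the SD of their log2 ratio was 0.298. There miR-99a ranked 24 of 140 for miR-100, miR-100 ranked 21 for miR-99a, and let-7a still ranked 84 for miR-100. MiR-100 and miR-125a-5p kept close in those 8 as well, with an SD of 0.140 and rank 2.

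MiR-125b-5p was closest to miR-29a (0.108), miR-125a-5p (0.179) and miR-342-3p (0.199). MiR-125a-5p was closest to miR-138 (0.151), miR-125a-3p (0.167), its own other arm, and miR-125b-5p. MiR-125a-3p was closest to miR-125a-5p, miR-100 and let-7e (0.215), the let-7 of its cluster. MiR-125b-3p was closest to miR-132 (0.188), let-7c (0.217) and miR-199a-3p (0.222), while its 5p arm ranked 32. MiR-99b was closest to miR-29a (0.163), miR-125b-5p (0.219) and miR-431 (0.221), with its cluster partner miR-125a-5p at rank 16.

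**Figure D5:**
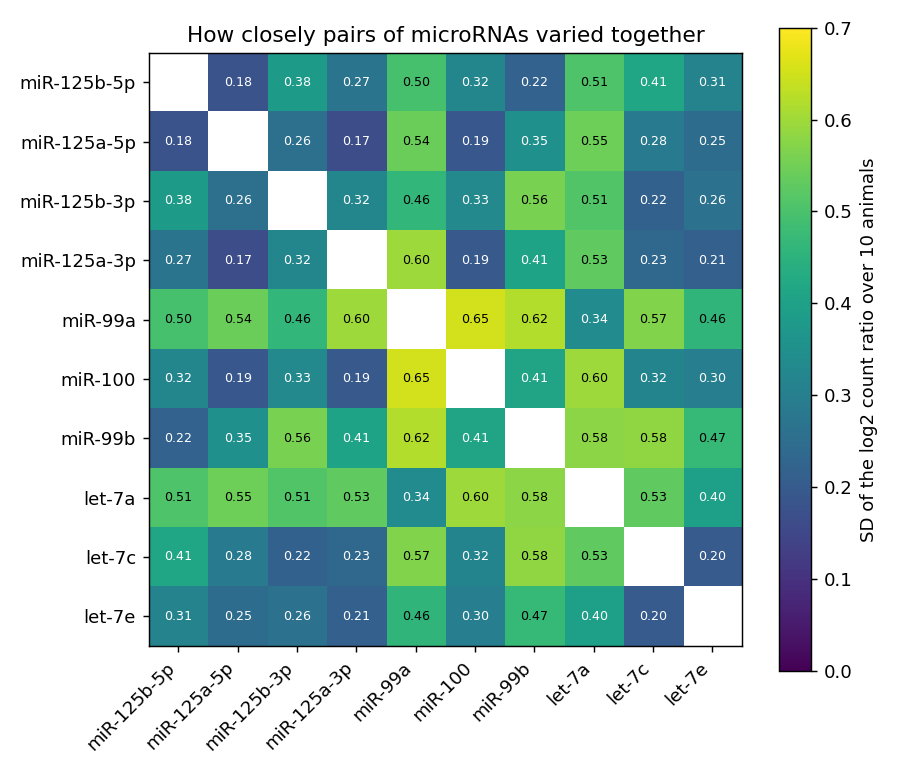
SD of the log2 count ratio over the 10 animals (colour and number) for each pair among the 7 members and let-7a, let-7c and let-7e. Low values mark pairs that kept their ratio, such as miR-125a-5p with miR-125a-3p (0.17), and the highest value is that of miR-99a with miR-100 (0.65).

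Of the let-7 microRNAs of the clusters and the sequence relative miR-10a-5p, none had both RIPC+LAD samples outside the range of all other samples. Let-7a, which also has gene copies elsewhere, held 0.354 to 0.790% of counts in AMC and 0.463 and 0.454% in RIPC+LAD. Let-7c held 3.06 to 4.00% in AMC, 3.10 and 2.46% in RIPC, 2.16 to 4.37% in LAD, and 3.80 and 4.11% in RIPC+LAD. MiR-10a-5p held 0.281 to 0.646% in AMC and 0.420 and 0.332% in RIPC+LAD. In RIPC+LAD against LAD the log2 fold changes were -0.12 ± 0.35 for let-7a, 0.56 ± 0.34 for let-7c and 0.39 ± 0.31 for let-7e (edgeR, adjusted p = 0.883, 0.370 and 0.498). Against RIPC they were -0.24 ± 0.38, 0.65 ± 0.38 and 0.28 ± 0.35. The interaction was -0.08 ± 0.49 for let-7a, 0.96 ± 0.49 for let-7c and 0.58 ± 0.45 for let-7e. Let-7c thus had values near those of the members that were higher in RIPC+LAD, with 0.98 for miR-100 in the interaction. MiR-10b was above threshold in 1 of 10 samples and miR-10a-3p in 0 of 10.

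Of the marker lists, only that of red cells, near background, lay below all other samples in both RIPC+LAD animals. The oligodendrocyte list (miR-338 and both miR-219 arms on the panel, 3 probes) summed to 1.76 and 0.982% in RIPC+LAD, 1.42 to 3.64% in AMC, 1.26 to 3.10% in RIPC and 1.99 to 5.14% in LAD. The 5 immune microRNAs, of which 4 were detected, summed to 1.44 and 1.12% in RIPC+LAD and 1.38 to 2.20% in the other groups. MiR-144 and miR-451, made in red cells, summed to 0.0136 and 0.0118% in RIPC+LAD and 0.0153 to 0.0490% elsewhere. These sums were near background, with miR-144 above threshold in 2 of 10 samples and miR-451 in 8. The 6 choroid plexus and ciliated cell microRNAs were at 2.06 and 1.86% in RIPC+LAD, 1.82 to 5.91% in AMC, 10.02 and 2.56% in RIPC, and 18.7, 2.13 and 2.32% in LAD, so RIPC+LAD lay within the range of the others. The neuronal list, at 12.9 and 11.8% in RIPC+LAD, lay within the range of the other groups. So did the vascular list, at 2.66 and 2.41% in RIPC+LAD and 2.10 to 3.45% elsewhere. The muscle list did too, at 0.107 and 0.0826% in RIPC+LAD and 0.0722 to 0.120% elsewhere. The part of these lists in the values of miR-100 and miR-99a was not tested.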

How the data were processed

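MicroRNAs of 10 rat dorsal vagal complex punches were measured with the nCounter rat panel. The authors deposited whole-number counts per probe for all samples, with 6 positive, 8 negative and ligation control probes; no source used here gives the software behind them. They also deposited log2 values, which equal log2 counts scaled to 1e+05 microRNA counts a sample (largest difference 5.0e-09 over 144 microRNAs matched by name).

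Groups came from the treatment in the labels, and replicates were numbered in accession order, which pairs no samples. Each sample was 1 animal. Chi-square statistics between animals of a group were 10.4 to 62.9 times their degrees of freedom, so none was a repeat. A microRNA was kept when its count passed the mean plus 2 SD of the negative controls in at least 2 samples (253 of 420). Samples were normalised with trimmed means of M values (TMM), and edgeR 4.0.16 (R 4.3.3) gave two-sided quasi-likelihood F tests from a single fit of the 10 samples, which lets the groups of 2 borrow the spread of the others, with Benjamini-Hochberg adjustment over the 253 and a threshold of 0.05. Each SE was derived from the log2 fold change and its F statistic (their ratio, with F under a square root). The test was run on simulated data first, and no figures on its power are given here. Shares, ratios and likeness have no test.

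All members were named, with the let-7 microRNAs of their clusters, miR-10 relatives and, for likeness, the 3 closest microRNAs. Members, lists and tests were chosen with earlier results of these data known. Alternatives were DESeq2 1.42.0, limma 3.58.1 on the authors' log2 values, limma-voom, other scalings and filters, control probes as covariates, and each animal left out. The fit without LAD 2 and LAD 3, the scalings of the samples that stood apart and the likeness over 8 samples were chosen after seeing the data.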

Additional observations from a re-analysis of the deposited data

How the results depend on the processing

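No member passed the adjusted threshold in any comparison under any alternative but 1: scaled to the positive controls, RIPC+LAD vs LAD called 6 members (78 of all 253). That scaling shifted the median over all microRNAs by 0.98 there (log2) and by 0.56 in RIPC+LAD vs AMC, and it turned miR-99a to 0.41 vs LAD, 0.0395 vs RIPC, 0.0453 vs AMC and 0.40 in the interaction. Scaling to the top 100 and no TMM factor moved the median of RIPC+LAD vs LAD by -0.18 and -0.14. With the ligation covariate, miR-125b-5p was at -0.14 vs LAD, -0.17 vs RIPC, -0.19 vs AMC and -0.12 in the interaction, and miR-99b at -0.37, -0.19, -0.16 and -0.39. With the POS_A positive control as a covariate, miR-125b-3p was at -0.0263 vs LAD, -0.0783 vs RIPC and -0.40 vs AMC, and miR-125a-5p at -0.0300 vs AMC. The cause was not tested. In RIPC+LAD vs LAD, miR-100 stayed positive under every alternative run, at 0.65 to 1.89, and at 0.79 to 0.89 with 1 animal left out.

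In LAD vs AMC and RIPC vs AMC, where values of the main fit lay near 0, signs turned as follows. In LAD vs AMC, scaling to the top 100 gave 0.0217 for miR-100, 0.11 for miR-125b-3p and 0.13 for miR-99b; no TMM factor gave 0.0268 for miR-125b-3p and 0.0329 for miR-99b; totals and TMM from non-members gave 0.00868 and 0.0164. MiR-99a was at -0.36 scaled to the positive controls and -0.0900 with the ligation covariate. Without a turn of sign, miR-125a-3p was at -0.79 scaled to the positive controls and -0.58 with the POS_A covariate. MiR-99b was at 0.0831 with the POS_A covariate, 0.21 with the ligation covariate and 0.32 without LAD 2 and LAD 3.

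In RIPC vs AMC, miR-100 was at 0.0185 with totals and TMM from non-members, 0.0128 scaled to the positive controls and 0.0250 without the detection filter. MiR-125a-5p was at 0.00551 (top 100), 0.00377 (no TMM factor), 0.0431 (non-member totals), 0.0158 (positive controls), 0.0478 (no filter) and 0.00928 (limma on the authors' log2 values). MiR-125b-5p was at 0.0225 (DESeq2), 0.0653 (top 100), 0.0695 (no TMM factor), 0.0967 (non-member totals), 0.0523 (positive controls), 0.0981 (no filter), 0.0727 (limma) and 0.0148 (only the groups compared). MiR-99a was at 0.0141, 0.0674, 0.0838, 0.0852, 0.00577, 0.0778, 0.0678 and 0.00756 in the same order.

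With 1 animal left out, RIPC vs AMC ran from -0.53 to 0.25 for miR-100, -0.56 to 0.12 for miR-125a-3p, -0.36 to 0.19 for miR-125a-5p, -0.20 to 0.16 for miR-125b-5p, -0.0666 to 0.0438 for miR-99a and -0.11 to 0.19 for miR-99b. LAD vs AMC ran from -0.35 to 0.14 for miR-125b-3p, -0.00581 to 0.23 for miR-99a and -0.19 to 0.26 for miR-99b.

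The RIPC mean share moved by more than its small SD: both families held 20.9% of the detected microRNAs' counts, 21.1% after background subtraction and 22.2% of a total without miR-204, and the miR-125 probes held 19.0% and 19.99% in the last 2. Groups of 2 animals and the low totals of LAD 2 and LAD 3 limit what these counts can show.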
